A study of Saccharomyces cerevisiae with 13 samples.

Results

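The 10 genes described here encode parts of reductive iron uptake, or related proteins, in the budding yeast Saccharomyces cerevisiae. They are FET3, FTR1, FET5, FTH1 and the ferric reductase genes FRE1 to FRE6, chosen by name, and they are 10 of the 5449 S. cerevisiae genes measured. Each had exactly 1 probe set on the array. RNA was measured in 13 samples from glucose-limited, micro-aerobic chemostats that all received the growth inhibitor furfural in the feed medium, so there was no culture without furfural. The parent strain TMB3400 gave 2 samples at 15 mM furfural and 3 samples at 25 mM. Its furfural-adapted descendant TMB3400-FT30-3, called FT30-3 here, gave 3 samples at 15 mM, 2 at 25 mM and 3 at 36 mM, a level at which the parent could not be kept in culture. The design text calls the replicates biological.

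In reductive uptake, reductases at the cell surface turn ferric iron, free or bound to siderophores, into ferrous iron. A multicopper ferroxidase, Fet3, then oxidises the ferrous iron again as it passes into the cell through the permease Ftr1, and Fet5 and Fth1 form a like pair on the vacuole membrane. The ferroxidases need copper, and the iron-responsive factor Aft1 raises transcription of many of these genes when iron is short, while FRE1 also answers to the copper-responsive factor Mac1.

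Values are intensities on a linear scale in arbitrary units, as deposited, and group values are means ± SD. The 10 genes lie on chromosomes II, V, VI, XI, XII, XIII, XIV and XV. Changes are log2 values ± standard error from one limma model over all 13 samples, fitted after setting every sample to a common median, and a gene passed at an adjusted p under 0.05 over all 5449 genes. Deposited intensities of all genes shifted upwards with dose, by a median of 0.13 on the log2 scale for 25 against 15 mM in each strain and by 0.17 for 36 against 15 mM, and the changes are relative to this shift. Intensities are compared between samples for 1 gene and not between genes. The background, taken as the 95th percentile of 1746 probe sets for another yeast, Schizosaccharomyces pombe, lay between 31.2 and 39 over the samples. FRE5 in 1 TMB3400 sample at 15 mM was the only value of the 10 genes that did not exceed it. Each sample is a bulk culture, in which fewer cells with a transcript and less transcript per cell cannot be told apart.

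FT30-3 at 36 mM replicate 1 stood apart, and the 3 samples of its group correlated with each other across probe sets at r = 0.966 to 0.995, against 0.985 to 0.994 for replicates in the other groups. Changes at 36 mM of the 10 genes, and of the other genes named, are given with and without it. The FRE genes are related in sequence, and whether their probe sets share signal was not tested.

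The change from 15 to 36 mM in FT30-3 was the broadest. Of the 10 genes, 6 rose (FRE5, FRE1, FRE3, FRE2, FRE6 and FET5) and 1, FTR1, fell, while FET3, FTH1 and FRE4 did not pass. Over all genes, 11% rose and 11.2% fell in this comparison, together 22.2%. The median change of the 10 genes was 0.48, against -0.03 for all genes tested. The 3 genes that did not pass had changes between -0.56 and -0.03. Without FT30-3 at 36 mM replicate 1, again 6 rose and 1 fell, and 23.6% of all genes passed.

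**Figure D1:**
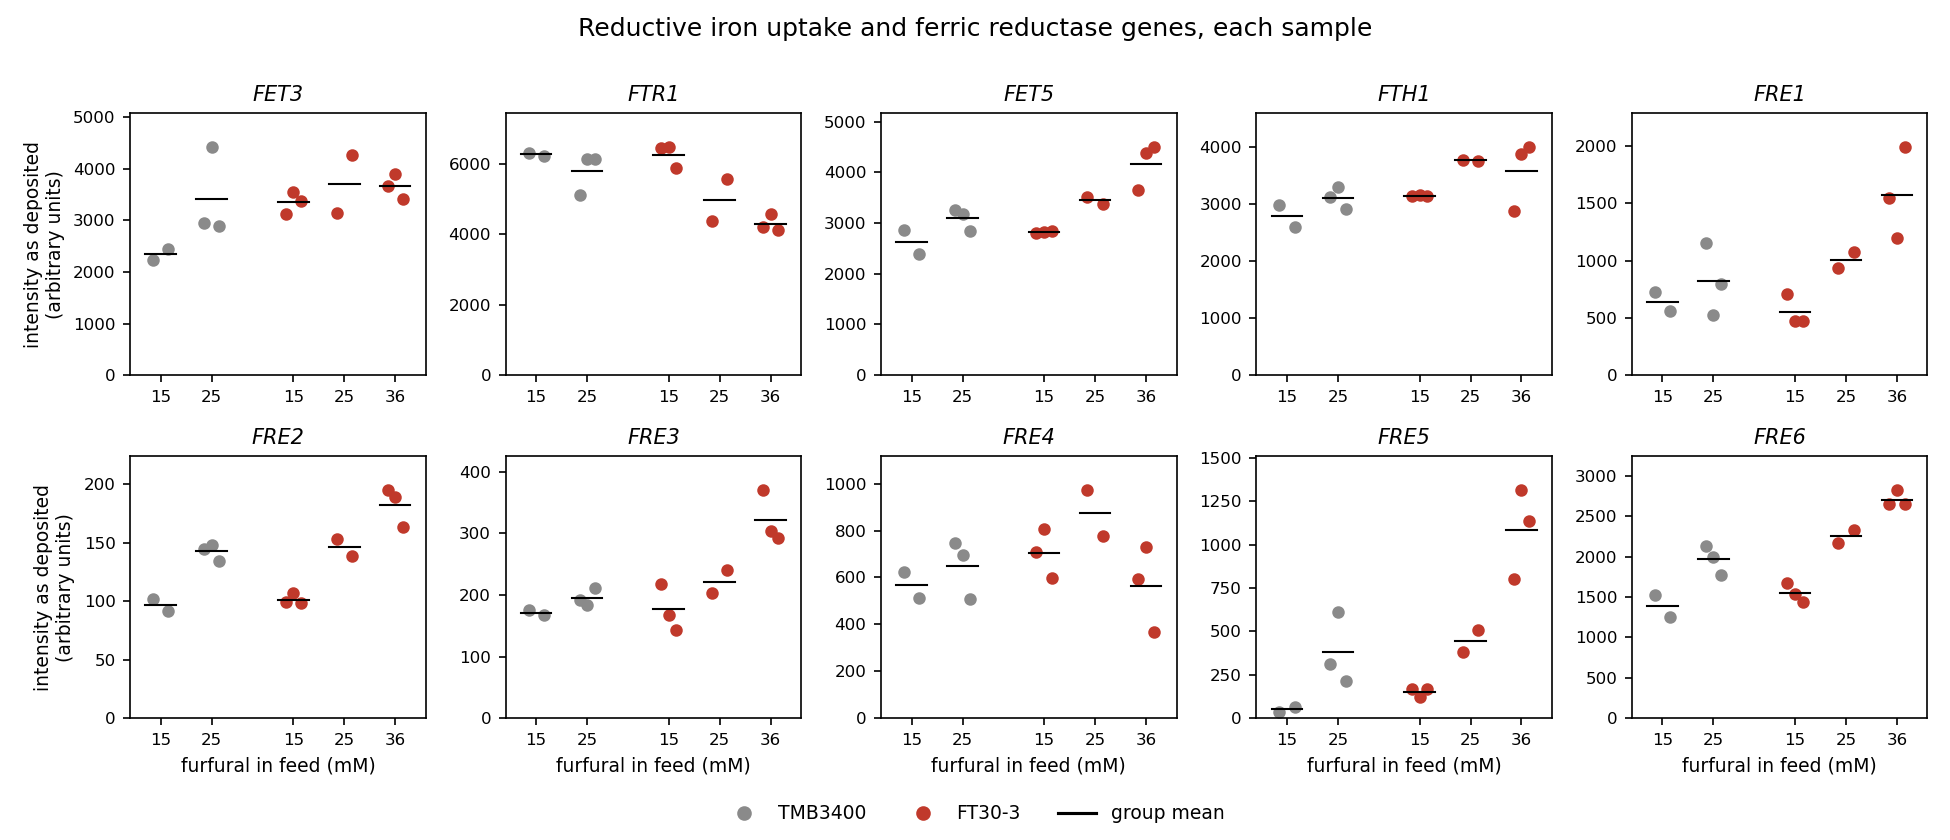
Intensity as deposited (arbitrary units, linear axes from 0, a different scale for each gene) of the 10 genes in each of 13 samples against furfural in the feed (mM), with TMB3400 in grey, FT30-3 in red and group means as bars. FRE5 climbs from 151.2 at 15 mM to 1085 at 36 mM in FT30-3, while FTR1 goes down from 6271 to 4305 and FET3 stays between 3131 and 4267 in all FT30-3 samples.

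Within the plasma membrane pair, the ferroxidase gene and the permease gene did not go the same way. FET3 read 3131, 3547 and 3373 in FT30-3 at 15 mM, 3141 and 4267 at 25 mM, and 3665, 3892 and 3411 at 36 mM. These FT30-3 values overlapped between all 3 levels. From 15 to 36 mM the FET3 change was -0.07 ± 0.17 (adjusted p = 0.777 in limma), with a 95% confidence interval from -0.44 to 0.30, and on the values as deposited it was 0.13. Without replicate 1 at 36 mM it was -0.07 ± 0.19 (adjusted p = 0.828).

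FTR1, the permease gene, read 6460, 6472 and 5882 in FT30-3 at 15 mM, 4369 and 5568 at 25 mM, and 4201, 4589 and 4125 at 36 mM. Every sample at 25 or 36 mM lay below every sample at 15 mM. From 15 to 36 mM FTR1 dropped by 0.74 in log2 terms (SE 0.11, adjusted p = 0.000854 in limma), from 6271 ± 337 to 4305 ± 249 (n = 3 each). Without FT30-3 at 36 mM replicate 1 the change was -0.72 ± 0.12 (adjusted p = 0.00277). The step from 15 to 25 mM was -0.51 ± 0.12 and narrowly missed the threshold (adjusted p = 0.0612). It passed without FT30-3 at 25 mM replicate 2 (-0.69, adjusted p = 0.0301) or without FT30-3 at 36 mM replicate 1 (-0.51, adjusted p = 0.0494). The step from 25 to 36 mM was -0.23 ± 0.12 (adjusted p = 0.279).

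In TMB3400, FET3 read 2237 and 2445 at 15 mM and 2958, 4412 and 2887 at 25 mM, and FTR1 read 6321 and 6231 at 15 mM and 5128, 6155 and 6137 at 25 mM. The samples of the 2 levels did not overlap for either gene, with FET3 above and FTR1 below its values at 15 mM. Neither difference passed, at 0.38 ± 0.19 for FET3 (adjusted p = 0.584) and -0.26 ± 0.12 for FTR1 (adjusted p = 0.557). The FET3 difference was 0.17 without TMB3400 at 25 mM replicate 2, the sample with 4412.

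The intensity of FET3 relative to FTR1 on the same array was higher at each higher furfural level in each strain. This ratio, in which only changes have meaning, was 0.35 and 0.39 in TMB3400 at 15 mM and 0.58, 0.72 and 0.47 at 25 mM. In FT30-3 it was 0.48, 0.55 and 0.57 at 15 mM, 0.72 and 0.77 at 25 mM, and 0.87, 0.85 and 0.83 at 36 mM. Samples of different furfural levels did not overlap within a strain. The log2 ratio at 36 mM exceeded that at 15 mM by 0.67 (two-sided exact permutation test, p = 0.1, the smallest that 3 against 3 samples can give), and by 0.65 without replicate 1 at 36 mM. For 25 against 15 mM the difference was 0.64 in TMB3400 (exact p = 0.2) and 0.47 in FT30-3 (exact p = 0.1), where 0.1 is the smallest possible, so these designs could not reach a p under 0.05. The ratio also differed between strains at equal furfural. FT30-3 was above TMB3400 by 0.52 at 15 mM (exact p = 0.1) and by 0.36 at 25 mM (exact p = 0.2), with the same smallest possible p.

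**Figure D2:**
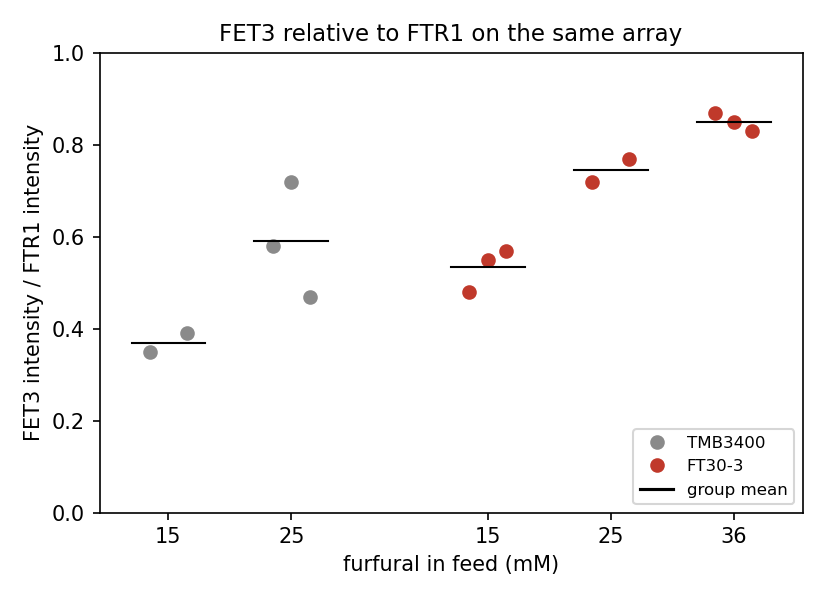
Ratio of FET3 to FTR1 intensity on the same array (linear axis) in each of 13 samples against furfural in the feed (mM), with group means as bars. The ratio lies between 0.35 and 0.39 in TMB3400 at 15 mM, and in FT30-3 between 0.48 and 0.57 at 15 mM and between 0.83 and 0.87 at 36 mM.

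From 15 to 36 mM neither gene of the vacuolar pair changed by as much as FTR1. FET5, the vacuolar ferroxidase gene, read 2799, 2823 and 2843 in FT30-3 at 15 mM, 3520 and 3377 at 25 mM, and 3645, 4384 and 4490 at 36 mM. The 3 levels did not overlap as deposited, and the replicates at 15 mM lay close together. After centring on the sample median, 36 mM replicate 1 (11.716 on the log2 scale) fell just below 25 mM replicate 1 (11.717). These 2 levels thus overlapped, and all samples at 15 mM stayed below both. FET5 rose by 0.36 ± 0.11 from 15 to 36 mM (adjusted p = 0.0381 in limma), a 1.28-fold change.

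The FET5 call was the least stable of the 7. It was lost without FT30-3 at 15 mM replicate 1 (0.34, adjusted p = 0.106), 2 (0.36, 0.087) or 3 (0.37, 0.0792), or without FT30-3 at 36 mM replicate 2 (0.32, 0.099) or 3 (0.29, 0.11). Without FT30-3 at 36 mM replicate 1 it held (0.46 ± 0.10, adjusted p = 0.00813). In a fit of the 15 and 36 mM samples alone the adjusted p was 0.0914.

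FTH1, which encodes the vacuolar permease partner of Fet5, read 3144, 3154 and 3133 in FT30-3 at 15 mM, 3775 and 3753 at 25 mM, and 2875, 3873 and 3992 at 36 mM. At 36 mM replicate 1 lay below all samples at 15 mM and the other 2 above them. The change from 15 to 36 mM was -0.03 ± 0.13 (adjusted p = 0.894) and without that replicate 0.13 ± 0.09 (adjusted p = 0.277). Its sign was also positive with all samples kept on the values as deposited (0.17), after quantile normalization (0.02) and with array weights (0.10), so no direction can be given. In TMB3400, FET5 lay between 2383 and 3253 and FTH1 between 2599 and 3293 over the 5 samples, and neither passed between 15 and 25 mM.

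Among FRE1 to FRE6, FRE5 changed by the largest amount. FRE5 belongs to the family by sequence, and its product has been found in mitochondria. In FT30-3 it read 166.3, 119 and 168.3 at 15 mM, 382.6 and 508.8 at 25 mM, and 804.1, 1313 and 1138 at 36 mM. The 3 levels did not overlap, and the group mean went from 151.2 ± 27.9 to 1085 ± 259 (n = 3 each). From 15 to 36 mM FRE5 rose by 2.62 ± 0.37 (adjusted p = 0.000702 in limma), 6.17-fold, and by size of rise it ranked 10 among all 5449 genes. Without FT30-3 at 36 mM replicate 1 the rise was 2.84 ± 0.40 (adjusted p = 0.00121).

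The single steps of FRE5 in FT30-3 did not pass, at 1.39 ± 0.41 from 15 to 25 mM (adjusted p = 0.156) and 1.23 ± 0.41 from 25 to 36 mM (adjusted p = 0.101). In a fit of the 15 and 25 mM samples of FT30-3 alone the first step passed (1.39, adjusted p = 0.0189). The later step passed without TMB3400 at 25 mM replicate 2 (1.23, adjusted p = 0.0445), a sample that enters only through the estimated spread. Each of these steps did not pass in 21 of 22 alternatives.

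In TMB3400, FRE5 read 34.9 and 66 at 15 mM, where replicate 1 did not exceed the background of that array (37.7), and 313.5, 611.1 and 213.2 at 25 mM. All samples at 25 mM were above both at 15 mM. FRE5 rose by 2.68 ± 0.41 (adjusted p = 0.00684 in limma). Of the 10 genes, 1 (FRE5) passed between 15 and 25 mM in TMB3400, where 1.6% of all genes did, 0.789% as rises and 0.807% as falls, and 3 of the 10 had an unadjusted p under 0.05. Because 1 of its 2 baseline values is at background, the size of this rise is uncertain. Without TMB3400 at 15 mM replicate 1 it was 2.22 and did not pass (adjusted p = 0.127), and in a fit of the TMB3400 samples alone it was 2.68 with an adjusted p of 0.0925.

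The rest of FRE1 to FRE6 had smaller changes from 15 to 36 mM. FRE1, the surface ferric and cupric reductase gene, read 712.3, 475.4 and 471.6 in FT30-3 at 15 mM, 934.9 and 1074 at 25 mM, and 1545, 1199 and 1989 at 36 mM. Levels did not overlap in FT30-3, but the spread at 36 mM was wide (1577 ± 396, n = 3). FRE1 rose by 1.31 ± 0.28 from 15 to 36 mM (adjusted p = 0.00691 in limma), 2.48-fold, and by 1.32 ± 0.32 without replicate 1 at 36 mM (adjusted p = 0.0165). In TMB3400 it read 726 and 556.5 at 15 mM and 1152, 523.2 and 797.6 at 25 mM, with overlap, and the difference of 0.16 ± 0.31 did not pass.

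FRE2, a second surface ferric reductase gene, was dim but above background in all samples. It read 99, 106.7 and 98.4 in FT30-3 at 15 mM, 153.3 and 138.8 at 25 mM, and 194.8, 189.1 and 163.1 at 36 mM. In TMB3400 it read 102.1 and 91.3 at 15 mM and 144.6, 148.5 and 134.6 at 25 mM. The levels did not overlap in either strain, and values at equal furfural overlapped between strains. FRE2 rose by 0.64 ± 0.09 from 15 to 36 mM (adjusted p = 0.000799 in limma), and by 0.60 ± 0.09 without replicate 1 at 36 mM (adjusted p = 0.0022). For 25 against 15 mM its changes were 0.42 ± 0.10 in TMB3400 (adjusted p = 0.0812) and 0.36 ± 0.10 in FT30-3 (adjusted p = 0.14), and neither passed.

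FRE6, whose product reduces iron at the vacuole membrane, read 1676, 1543 and 1434 in FT30-3 at 15 mM, 2169 and 2334 at 25 mM, and 2651, 2821 and 2652 at 36 mM. In TMB3400 it read 1525 and 1257 at 15 mM and 2129, 1994 and 1776 at 25 mM. As for FRE2, no 2 levels overlapped within a strain. FRE6 rose by 0.61 ± 0.10 from 15 to 36 mM (adjusted p = 0.00204 in limma), 1.52-fold, and by 0.63 ± 0.11 without replicate 1 at 36 mM (adjusted p = 0.00357). The changes for 25 against 15 mM were 0.36 ± 0.11 in TMB3400 (adjusted p = 0.231) and 0.38 ± 0.11 in FT30-3 (adjusted p = 0.17). On the values as deposited, which include the shift of all genes, FRE2 and FRE6 passed this step in both strains. There FRE2 differed by 0.56 in TMB3400 (adjusted p = 0.0182) and 0.52 in FT30-3 (0.0191), and FRE6 by 0.50 (0.0459) and 0.54 (0.0259). For each gene and strain, this step did not pass in 21 of 22 alternatives.

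FRE3, a reductase gene for siderophore-bound iron, read 218.2, 167.6 and 143.8 in FT30-3 at 15 mM, 202.5 and 241 at 25 mM, and 370, 303.3 and 293 at 36 mM. The samples at 36 mM were above all others, while those at 15 and 25 mM overlapped. FRE3 rose by 0.68 ± 0.14 from 15 to 36 mM (adjusted p = 0.00582 in limma) and by 0.59 ± 0.14 without replicate 1 at 36 mM (adjusted p = 0.0166). Between 25 and 36 mM it differed by 0.50 ± 0.16 (adjusted p = 0.0851), and this passed without FT30-3 at 15 mM replicate 1 (0.50, adjusted p = 0.0467). In 21 of 22 alternatives this difference did not pass. In TMB3400 it lay between 168.1 and 211.9.

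FRE4, also linked to reduction of siderophore-bound iron, was the one gene of FRE1 to FRE6 with a lower mean at 36 mM than at 15 mM. It read 707.9, 805.3 and 597 in FT30-3 at 15 mM, 971.7 and 779.1 at 25 mM, and 592, 730.4 and 369.3 at 36 mM. Samples at 15 and 36 mM overlapped, and the change of -0.56 ± 0.23 did not pass (adjusted p = 0.103), nor did it without replicate 1 at 36 mM (-0.62 ± 0.27, adjusted p = 0.122). It passed without FT30-3 at 36 mM replicate 2 (-0.77, adjusted p = 0.0416), but in 20 of 22 alternatives it did not. In TMB3400 FRE4 lay between 507.7 and 746.8, with both levels overlapping.

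**Figure D3:**
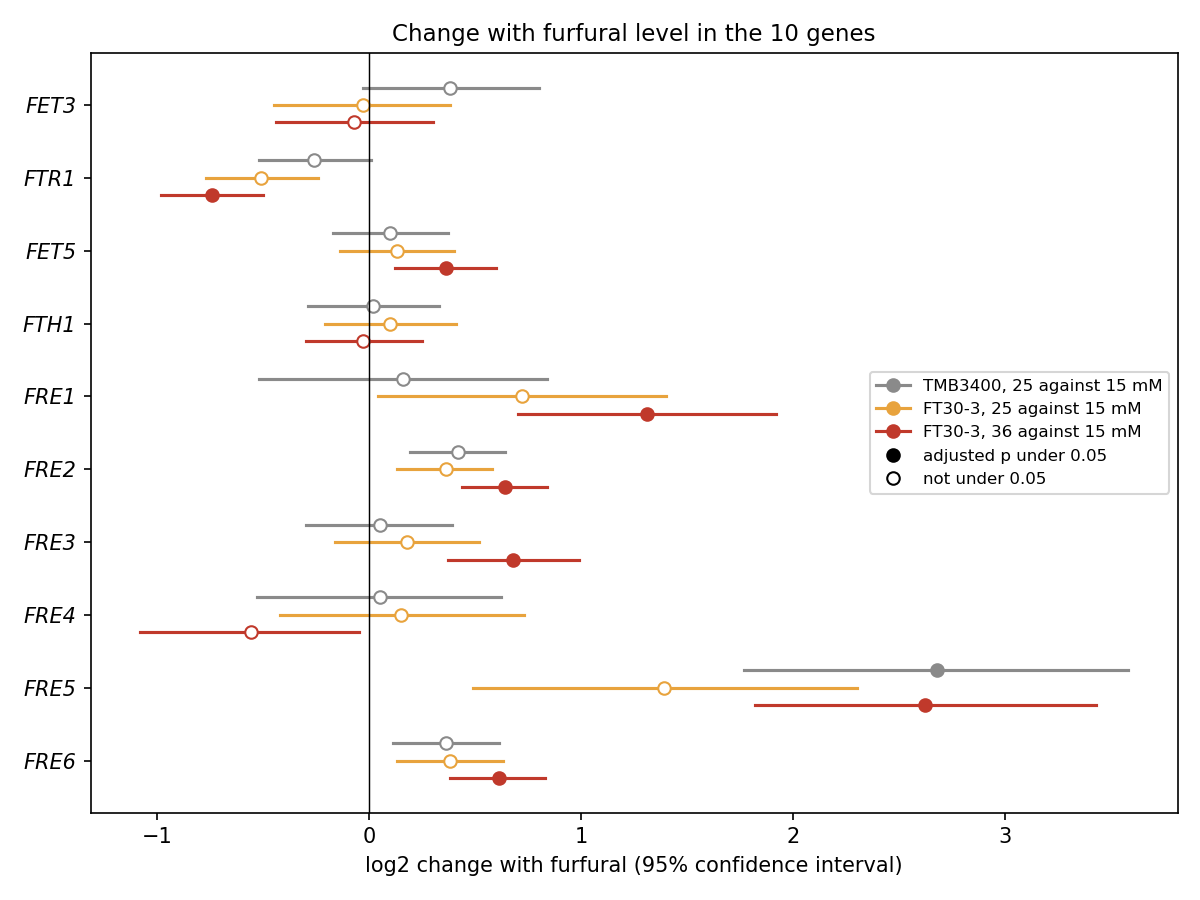
Log2 change with furfural of the 10 genes, with 95% confidence intervals, for 25 against 15 mM in TMB3400 and in FT30-3 and for 36 against 15 mM in FT30-3 (the last 2 share the samples at 15 mM). Filled points passed an adjusted p under 0.05. FRE5 lies farthest to the right at 2.68 and 2.62, and FTR1 to the left at -0.74.

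In FT30-3, 0 of the 10 genes passed between 15 and 25 mM in limma, where 2.15% of all genes passed (1.23% as rises, 0.918% as falls), and 5 had an unadjusted p under 0.05. Between 25 and 36 mM also 0 passed, where 7.1% of all genes did (3.38% as rises, 3.73% as falls), and 4 had an unadjusted p under 0.05. By the order of the 5 group means, FRE2, FRE3, FRE5 and FRE6 each went from TMB3400 at 15 mM through FT30-3 at 15 mM, TMB3400 at 25 mM and FT30-3 at 25 mM to FT30-3 at 36 mM. Steps in that order could be small, with FRE2 differing between strains by 0.06 ± 0.10 at 15 mM and 0.01 ± 0.10 at 25 mM. How many of all genes share this order, or separate in samples, was not counted. Of neighbours in that order, samples of FT30-3 at 25 and at 36 mM did not overlap for these 4 genes. FT30-3 at 15 mM and TMB3400 at 25 mM overlapped for FRE3 but not for FRE2 or FRE5. The strains overlapped at 15 mM except for FRE5, and at 25 mM for FRE2, FRE3 and FRE5. For FRE6, FT30-3 at 15 mM and TMB3400 at 25 mM were separate as deposited but overlapped after centring on the sample median. The same held for FRE6 between the strains at 25 mM. For FRE5, this span from lowest to highest group was 4.24 on the log2 scale, against 0.27 for FTH1, the gene with the smallest span. The lowest FRE5 group was TMB3400 at 15 mM, where 1 of 2 samples was not above background, so the size of its span is uncertain. Strain and furfural level both differ between the end groups of the FRE5 span.

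The strains were then compared at equal furfural. At 15 mM 0 of the 10 genes passed in limma, where 2.17% of all genes did (1.91% higher and 0.257% lower in FT30-3), and 2 had an unadjusted p under 0.05. These were FRE5 and FET3, and in each all 3 FT30-3 samples were above both TMB3400 samples. The same was true of FTH1 (3133.2 to 3154.2 against 2598.7 to 2980.5), with an unadjusted p of 0.247 in limma. How many of all genes separate in this way was not counted. FRE5 was higher in FT30-3 by 1.61 ± 0.41 (adjusted p = 0.0712), with 151.2 ± 27.9 (n = 3) against 50.5 ± 22.0 (n = 2), where 1 of the 2 TMB3400 samples was not above background, so the size of the difference is uncertain. It passed when replicate 2 of TMB3400 at 25 mM was left out (1.61, adjusted p = 0.0319), and over all alternatives the adjusted p ran from 0.0165 to 0.577. FET3 was higher by 0.51 ± 0.19 (adjusted p = 0.258), with 3351 ± 209 against 2341 ± 147.

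At 25 mM 0 of the 10 passed, where 6.7% of all genes did (4.31% higher and 2.39% lower in FT30-3), and 0 had an unadjusted p under 0.05 in limma. Differences ran from -0.26 for FTR1 to 0.41 for FRE4, and the FRE5 samples of the strains overlapped. As deposited, all FT30-3 samples were above all TMB3400 samples for FET5, FTH1, FRE4 and FRE6. The share of all genes that separate so was not counted. Averaged over both levels 0 passed in limma, where 11.2% of all genes did (6.81% higher and 4.4% lower in FT30-3), with 2 at an unadjusted p under 0.05. FRE5, with that sample at background in the average, stood at 0.97 ± 0.29 (adjusted p = 0.0548) and FET3 at 0.31 ± 0.13 (adjusted p = 0.178). FRE5 passed without FT30-3 at 36 mM replicate 1 (0.97, adjusted p = 0.0393) or without replicate 2 of TMB3400 at 25 mM (1.18, 0.0104). Without replicate 2 of TMB3400 at 15 mM it was 1.20. FET3 passed without replicate 2 of TMB3400 at 25 mM (0.41, 0.0276). FTH1, at 0.21 ± 0.10 (adjusted p = 0.213), passed without FT30-3 at 36 mM replicate 1 (0.21, 0.0358). Of 22 alternatives, FRE5 did not pass in 15, FET3 in 21 and FTH1 in 20.

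Whether the step from 15 to 25 mM differed between strains was tested as an interaction. In limma 0 of the 10 genes passed, where 0.679% of all genes did (0.422% above 0 and 0.257% below), and 1, FRE5, had an unadjusted p under 0.05. Its difference, FT30-3 minus TMB3400, was -1.28 ± 0.58 on the log2 scale (95% confidence interval from -2.56 to -0.01, adjusted p = 1). The TMB3400 values at 15 mM, of which 1 is at background, enter this value.

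Other gene lists were then set beside these 10 genes. Of 7 genes of siderophore uptake, the route that takes up iron bound to siderophores, 7 rose from 15 to 36 mM in FT30-3, with a median change of 2.39, where 11% of all genes rose. Without replicate 1 at 36 mM 6 of the 7 rose. From 15 to 25 mM 3 rose in TMB3400, where 0.789% of all genes did, and 3 in FT30-3, where 1.23% did. The siderophore transporter genes ARN2 and ARN1 rose by 2.39 ± 0.16 and 2.98 ± 0.20, and by 2.38 and 3.04 without that replicate. FRE3 and FRE5 lie on chromosome XV with FIT2 and FIT3, genes of cell wall mannoproteins that aid siderophore iron retention, and YOR381W-A between them in gene order. From 15 to 36 mM FIT2 rose by 0.85 ± 0.15 (adjusted p = 0.00312) and FIT3 by 0.63 ± 0.11 (adjusted p = 0.0028), and without replicate 1 at 36 mM by 0.81 and 0.62. Changes of FRE3 (0.68), FIT2 and FIT3 were thus near each other in size, and the 95% confidence interval of FRE5, 1.82 to 3.43, lay above those of all 3.

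The lists that follow are read against the 11% of all genes that rose and the 11.2% that fell from 15 to 36 mM, or 11% and 12.6% without replicate 1 at 36 mM. Of 7 iron regulators, 4 rose and 1 fell, and without that replicate 3 rose and 1 fell. YAP5, a factor for responses to high iron, rose (0.81 ± 0.16, adjusted p = 0.00521, and 0.63 without that replicate). GRX4, a glutaredoxin that acts with Aft1, fell (-0.75 ± 0.19, adjusted p = 0.0191, and -0.51 without that replicate, adjusted p = 0.0307). GRX3, another glutaredoxin gene of this list, went the other way (0.41 ± 0.11, adjusted p = 0.0195, and 0.44 without that replicate, adjusted p = 0.0239). AFT1 rose (0.58 ± 0.18, adjusted p = 0.0441) but did not pass without that replicate (0.34, adjusted p = 0.0766). Of 6 genes of vacuolar and mitochondrial iron transport, 1 rose, SMF3, the vacuolar iron exporter gene (0.81 ± 0.12, adjusted p = 0.000827, and 0.95 without the replicate), and 2 fell, CCC1, the vacuolar iron importer gene (-0.33 ± 0.09, adjusted p = 0.0209, and -0.34 without it), and MRS3, a mitochondrial iron carrier gene (-0.30 ± 0.09, adjusted p = 0.0422, and -0.37 without it). Of 6 iron-saving genes 3 rose, with and without that replicate. Among them was TIS11, which acts in messenger RNA decay when iron is short (3.24 ± 0.27, and 2.98 without the replicate). Of 5 low-affinity metal uptake genes, 0 rose and 1 fell with this step, FET4, the low-affinity iron transporter gene (-0.95 ± 0.31, adjusted p = 0.0467). Without the replicate FET4 did not pass (-0.71, adjusted p = 0.128). In FT30-3 FET4 was dim, at 101.2 to 147.9 at 15 mM and 48.8 to 119.5 at 36 mM, so the size of its change is uncertain. In TMB3400 it was much brighter, at 1372.6 to 1911.5 at 15 mM and 1074.3 to 1537.4 at 25 mM. The count of 1 in 5 is near the 22.2% of all genes that passed.

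Of 8 genes of copper supply, which loads the ferroxidases, 1 rose and 1 fell from 15 to 36 mM, with and without replicate 1 at 36 mM, a share near the 22.2% of all genes that passed. CTR2, the vacuolar copper transporter gene, rose by 0.40 ± 0.11 (adjusted p = 0.02), and by 0.36 without that replicate. FRE7, a reductase gene known to respond to copper, read 200, 136 and 130 in FT30-3 at 15 mM and 31, 30 and 44 at 36 mM, where 2 of 3 samples were not above background. Its change of -2.32 ± 0.31 passed in limma (adjusted p = 0.000537), with a size that is uncertain because of those samples, and was -2.23 without replicate 1. FRE7 thus fell where FRE1 rose, and also fell between 15 and 25 mM in TMB3400 (-1.75 ± 0.34, adjusted p = 0.0273) and in FT30-3 (-2.14 ± 0.34, adjusted p = 0.00612). FRE8 and AIM14, the other family members outside the 10, did not pass from 15 to 36 mM. In limma FRE8 changed by 0.13 (adjusted p = 0.584) and AIM14 by -0.45 (adjusted p = 0.0756), and without replicate 1 by 0.31 and -0.29.

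By the smallest root mean square difference of their profiles over the 13 samples, after removing each gene's mean, among 372 genes with a mean log2 value of at least 6 and a group span of at least 1, FRE1 was nearest to YMR265C (0.293), CTR1 (0.302), PTC2 (0.305), GTT2 (0.307) and RTA1 (0.311). Among the same 372 genes, YMR265C was also nearest to FRE2 (0.202) and FRE3 (0.215), so that likeness is not particular to FRE1. CTR1 encodes the high-affinity copper transporter of the plasma membrane. It read 1205, 743 and 790 in FT30-3 at 15 mM, 1903 and 1200 at 25 mM, and 2833, 1091 and 3204 at 36 mM, and 1463, 737 and 1130 in TMB3400 at 25 mM. The sample with the highest FRE1 value in a group also had the highest CTR1 value in 4 of 5 groups and the highest CTR3 value in 3 of 5. With only 2 or 3 samples in a group, some sharing arises by chance, and the share over all genes was not counted. Replicate 2 was lowest for FRE1 and CTR1 in FT30-3 at 36 mM and in TMB3400 at 25 mM. The CTR1 change from 15 to 36 mM, 1.07 ± 0.39, did not pass (adjusted p = 0.0699), and was 0.88 without replicate 1 at 36 mM. CTR3 did not pass either (0.87, adjusted p = 0.252, and 0.75 without that replicate). FET3 was nearest to PIG2 (0.291), FIT3 (0.307), GTO3 (0.328), TFB2 (0.332) and SNF8 (0.333). Its own group span was 0.51, so genes with a profile as flat as that of FET3 were not among the candidates. Among the 10 genes, FTH1 was nearer to FET3 (0.229). Among the 45 pairs of the 10 genes, FRE2 and FRE6 were nearest (0.113), followed by FET5 with FRE6 (0.152) and FET5 with FTH1 (0.153).

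**Figure D4:**
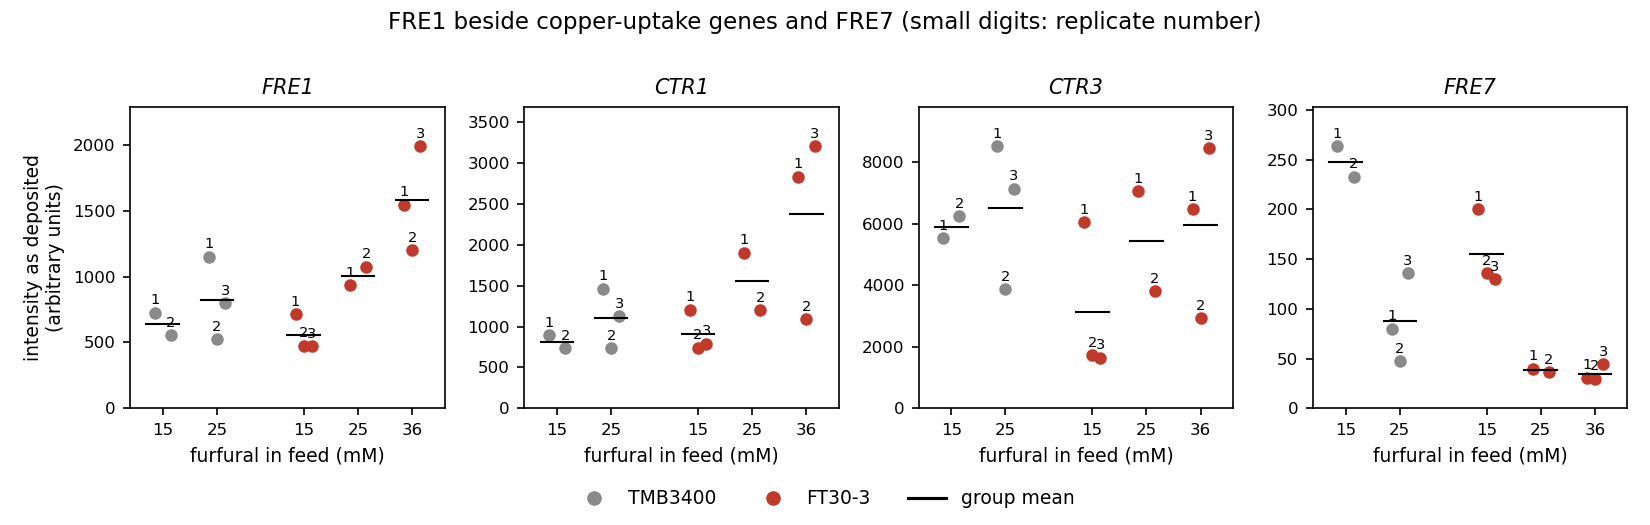
Intensity as deposited (arbitrary units, linear axes from 0) of FRE1, the copper transporter genes CTR1 and CTR3 and the reductase gene FRE7 in each of 13 samples against furfural in the feed (mM), with bars for group means and small digits for replicate numbers. In FT30-3 at 36 mM replicate 2 is lowest for FRE1 (1199), CTR1 (1091) and CTR3 (2929), and FRE7 lies between 30 and 44.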

How the data were processed

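The authors deposited 1 intensity per probe set and sample on a linear scale, from 1-colour biotin-labelled arrays per the labels. The submitters' processing notes name R 2.7.2. The summary method, scaling, scan dates and array build: not given in the sources used here. Of 10928 probe sets, 5498 were annotated to 1 S. cerevisiae gene, 1746 to S. pombe, 1 to several genes and 3683 to none. Symbols were updated through gene identifiers, and the brightest probe set stood for each of 47 genes that had several. Tests used log2(intensity + 1) centred on each sample's median, limma 3.58.1 in R 4.3.3 (lmFit, eBayes), 5 group means and Benjamini-Hochberg adjustment within a comparison. The number of samples limits the precision.

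The 10 genes and all gene lists were chosen with earlier results of these data known. All 10 are named, with up to 3 genes of smallest p per list and the 5 nearest profiles of FET3 and FRE1. CTR1 values and CTR3 are shown as copper genes of that comparison, and AFT1 as the factor introduced at the start. FIT2 and FIT3 are shown as neighbours, chosen after their values were seen. The fit was tested on simulated data. Figures were drawn with matplotlib 3.10.9.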

Additional observations from a re-analysis of the deposited data

How the results depend on the processing

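There were 22 alternatives, 13 of which left out 1 sample. From 15 to 36 mM in FT30-3, 6 to 7 genes passed when 1 sample was left out, and FTR1, FRE1, FRE2, FRE3, FRE5 and FRE6 kept their calls in all 22. FET5 and the FRE5 rise in TMB3400 lost theirs in some. Sign changes were limited to 2 of the 37 single-gene results compared, both uncalled. FET3 (36 against 15 mM) was 0.13 as deposited, and FTH1 was 0.17 as deposited, 0.02 after quantile normalization, 0.10 with array weights and 0.13 without FT30-3 at 36 mM replicate 1, with a range of -0.12 to 0.13 when 1 sample was left out. On the values as deposited, without centring, 3 genes passed between 15 and 25 mM in TMB3400, 2 did so in FT30-3, and 1 passed between strains averaged over levels. With array weights it was 1 between strains at 15 mM and 2 averaged, and with an intensity trend 1 averaged and 1 for 25 against 15 mM in FT30-3. With only the groups compared it was 1 between strains at 15 mM, 0 for 25 against 15 mM in TMB3400 and 1 in FT30-3. Leaving out 1 sample gave 0 to 1 between strains at 15 mM, 0 to 2 averaged, 0 to 1 for 25 against 15 mM in each strain and 0 to 1 for 36 against 25 mM. The causes were not tested. With the replicate number as a block, 1 gene passed between strains averaged over levels, FET5 lost its call (adjusted p = 0.058) and FRE4 passed (-0.56, adjusted p = 0.0251). The labels do not say that a replicate number marks a shared culture or day: 13 of 23 same-numbered pairs correlated above 0.1 in their deviations from group means, and 7 of 13 samples correlated best with their own number. Over all genes, the alternatives gave 732 to 2594 calls for 36 against 15 mM (1211 as reported) and 4 to 463 between strains at 15 mM (118 as reported). They gave 31 to 209 in TMB3400 between 15 and 25 mM (87), 73 to 204 for FT30-3 (117), 74 to 414 for 36 against 25 mM (387), 126 to 591 between strains at 25 mM (365), 345 to 1049 averaged (611) and 21 to 57 for the interaction (37). The FRE5 baseline in TMB3400 lies near background, which limits the size of its fold.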

Other observations

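The sample with the highest FET3 intensity in its group also had the highest FTR1 intensity in 4 of 5 groups, among them replicate 2 in TMB3400 at 25 mM (4412 for FET3, 6155 for FTR1) and replicate 2 in FT30-3 at 25 mM (4267 and 5568). FET3 and FRE5 shared their highest sample in 4 of 5 groups, and FET5 and FTH1 in 3 of 5. With only 2 or 3 samples in a group, some sharing arises by chance, and the share over all pairs of genes was not counted. Only these pairs and FRE1 with CTR1 and CTR3 were looked at. These are descriptions of 13 samples, with no test.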
